A study of Mus musculus with 7 samples.

Results

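The epidermal differentiation complex is a cluster of genes on mouse chromosome 3 that encode much of the protein shell of the outer epidermis. Its members were taken by position, as every gene listed on chromosome 3 with a start in the interval of the complex on GRCm38 (mm10), without the S100 genes of that interval. The rule used no expression value and gave 50 of the 23284 gene symbols in the files. The 2 S100 genes left out were *S100a10* and *S100a11*. Of the 50 members, 46 had a mean FPKM of 0.5 or more and entered the comparison. *Lelp1*, *Gm4858* and *Mir5124* were listed at 0 in every papilloma, and *Smcp* had a mean of 0.212 FPKM. No member had a failed estimate. FPKM, the unit of every level below, scales fragments to the length of the transcript and to the size of the library. *Flg*, the filaggrin gene, was not analysed here.

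RNA was sequenced from papillomas of 4 CTR and 3 TG C57Bl/6 mice, 1 papilloma library per mouse. All mice carried the *tetO-Nanog* allele, a *Nanog* cDNA inserted downstream of *Col1a1*, and drank doxycycline at 2 mg/ml throughout a DMBA/TPA protocol, in which DMBA is the mutagen and TPA the tumor promoter. TG mice also carried *K5-rtTA*, in which the keratin 5 promoter drives the transactivator in basal keratinocytes, and CTR mice lacked it. Mice of both groups were 8 to 10 weeks old at the start. Papillomas were taken when the protocol ended or earlier, when a mouse reached the humane endpoint. The paper reports that many TG mice were killed early because of large carcinomas. Which time applied to each papilloma is not known here. Tumor age and time since the last TPA may therefore differ between the groups, which was not tested. Whole papillomas were used, so fewer cells of a type and less RNA per cell cannot be told apart in these values.

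Keratinocytes that leave the basal layer of the epidermis stop dividing, replace their keratins and build the cornified envelope under the plasma membrane. Involucrin forms an early scaffold, loricrin becomes the main envelope protein in normal epidermis, and small proline-rich (Sprr) proteins act as cross-bridges, all joined by transglutaminases. Late cornified envelope (Lce) proteins are added near the end, while the fused S100 type proteins, such as hornerin and repetin, combine a calcium-binding head with long repeats. The comparison asked how transcripts of these genes differed between papillomas with and without transgenic *Nanog*.

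*Nanog* itself was 2.70, 2.84, 12.7 and 3.34 FPKM in CTR 1 to CTR 4 and 36.9, 57.4 and 66.9 FPKM in TG 1 to TG 3. The TG papillomas were all above the CTR papillomas. The difference was 3.45 on the log2 scale (limma adjusted p = 0.4; 2-sided exact permutation test, p = 0.0286). The transgene and the endogenous gene are not separated in these values. Depth was inferred from the intervals in the files, between 10074859 and 15710562 reads, with CTR 3 and TG 1 the deepest. TG 3 stood apart from the other libraries. Its mean correlation with the other papillomas on the log2 scale was 0.917, against 0.950 to 0.964 for the rest. The skeletal muscle markers, 12 of 12 with a positive difference, summed to 2.24 to 3.62 FPKM in CTR papillomas and to 3.45, 6.25 and 757 FPKM in TG 1 to TG 3. None of the 12 was listed at 0 throughout. Fibroblast markers, 9 of 9 with a positive difference, summed to 79.1 to 140 FPKM in CTR papillomas and to 99.0, 94.9 and 730 FPKM in TG 1 to TG 3. Keratinocyte markers were present in every papilloma, with a sum between 9386 FPKM in TG 3 and 16603 FPKM in TG 1. The part of these other cells in the results below was not tested, and each main result is given with and without TG 3.

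Transcripts of the locus were abundant. 22 members had a mean over 100 FPKM, and together the members made up 3.72% to 5.50% of all FPKM of a library. On this per-length scale *Sprr1a* had the highest mean in both groups, at 3630 FPKM. In CTR papillomas *Sprr3* (2029 FPKM), *Sprr1b* (2000 FPKM) and *Lor* (1012 FPKM) followed. In TG papillomas *Sprr1b* (2544 FPKM), *Sprr2a2* (2074 FPKM) and *Sprr2b* (1027 FPKM) followed. Neighbors in these orders, such as *Sprr3* and *Sprr1b* in CTR papillomas, overlapped in their levels.

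Over the whole locus, 38 of the 46 members tested had a positive and 8 a negative difference, TG minus CTR. Among all 12299 genes tested, 7383 were positive and 4916 negative, which every count of signs in this report should be set beside. The median difference of log2(FPKM + 0.5) was 0.65 over the members and 0.06 over all 12299 genes tested. By limma with Benjamini-Hochberg adjustment over all genes, no direction had a member at an adjusted p under 0.05 (0 higher, 0 lower). The same held for all genes (0% in each direction). *Nanog*, the gene of the transgene, also missed this threshold (limma adjusted p = 0.4). At an unadjusted p under 0.05, 12 members were higher (26.1%), against 4.86% of all genes tested, and 1 was lower (2.17%), against 1.96%. The 12 were *Ivl*, *Sprr2a2*, *Sprr2b*, *Sprr2d*, *Sprr2e*, *Sprr2i*, *Prr9*, *Kprp*, *Lce1l*, *Crnn*, *Hrnr* and *Pglyrp3*, and the lower one was *Sprr3*. For 7 members all TG papillomas were above all CTR papillomas, against 4.93% of all genes, and for 0 members the reverse held, against 2.23%. Without TG 3, 27 members were higher at an unadjusted p under 0.05, against 5.2% of all genes, and the median difference of the members was 1.18. Without TG 2 the count was 6, against 4.85% of all genes. Without TG 1, 8 members were higher and 5 lower, against 6.71% and 2.81%. In the 5 papillomas of lower depth, a comparison chosen after seeing the data, 7 members were higher and 2 lower, against 3.68% and 1.42%. Of the 27 members higher without TG 3, 12 were Lce1 and 6 were Sprr2 genes. Genes of such a family resemble each other and can share reads, so the members in these counts are not independent.

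**Figure D1:**
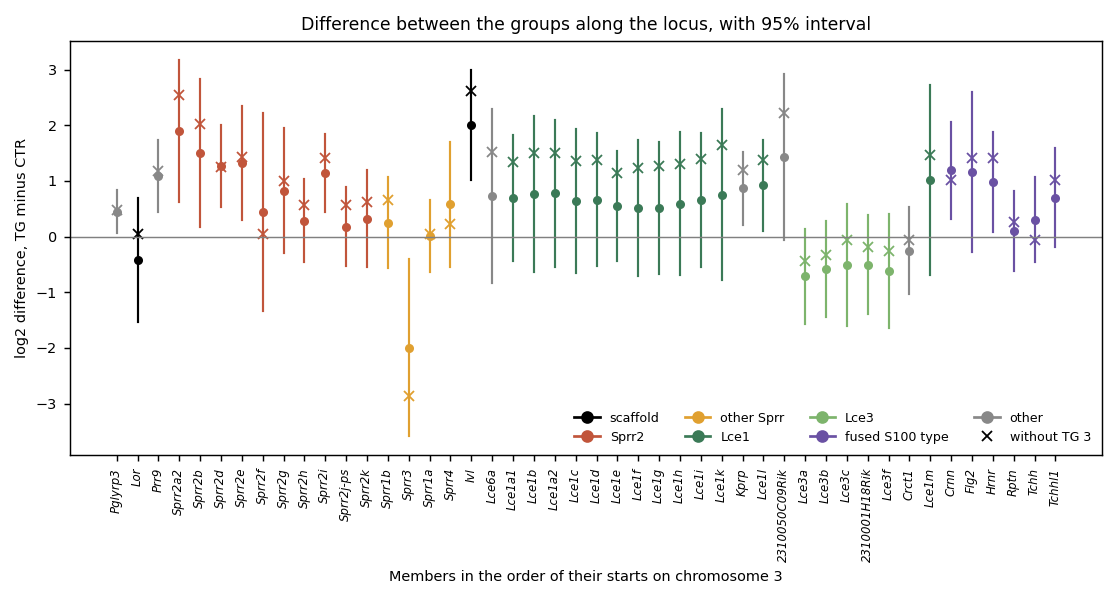
Difference of log2(FPKM + 0.5), TG minus CTR, for the 46 members tested, in their order on chromosome 3. Points are limma estimates with 95% intervals (bars) and crosses the estimate without TG 3. *Ivl* (2.01) and *Sprr3* (-2.0) lie at the ends, the Lce1 genes all lie above 0 and the Lce3 genes all lie below it.

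The TG papillomas were not alike in this locus. TG 1 was above every CTR papilloma in 30 of 46 members and TG 2 in 31, against 22.5% and 21.4% of all genes tested. They were below every CTR papilloma in 2 and 5 members, against 22.8% and 23.6% of all genes. TG 3 differed, with 11 members above every CTR papilloma, against 47% of all genes, and 15 below, against 14%. The median member lay 0.89 (TG 1) and 1.01 (TG 2) above the mean of the CTR papillomas on the log2 scale and at -0.26 in TG 3. Over all genes the corresponding medians were -0.03, -0.02 and 0.24.

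**Figure D2:**
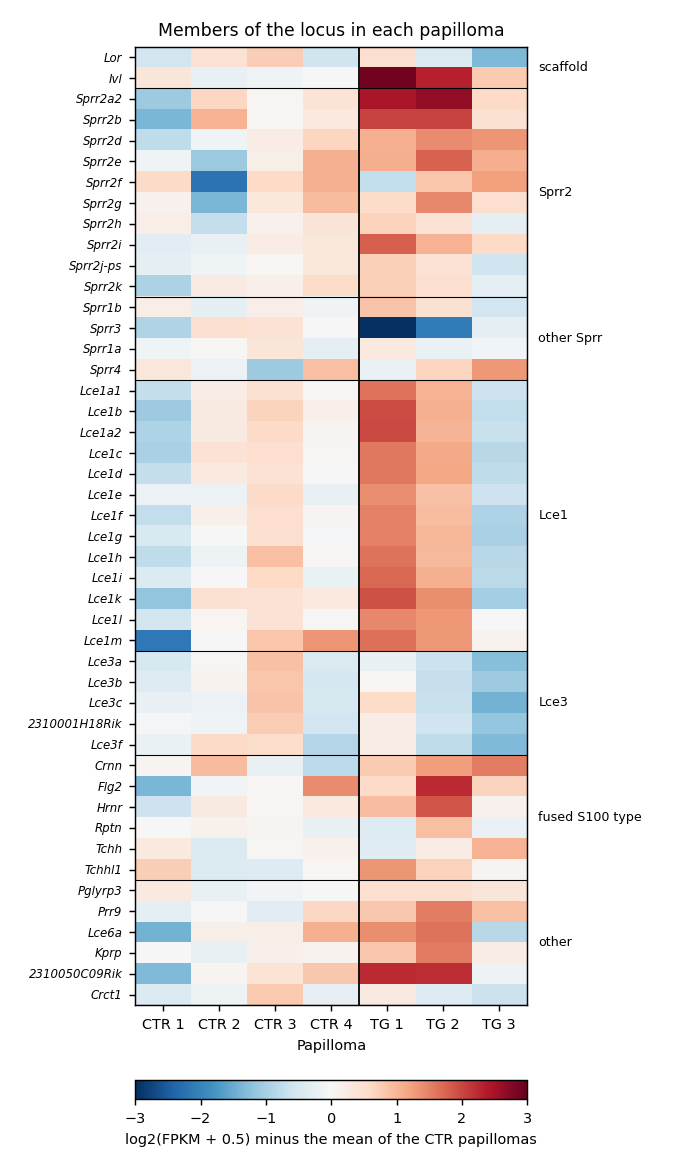
Each of the 46 members tested (rows, grouped by family) in each papilloma (columns), as log2(FPKM + 0.5) minus the mean of the 4 CTR papillomas, on a color scale from -3 to 3. Sprr2 genes are mostly red in all TG papillomas, Lce1 genes are red in TG 1 and TG 2 but not in TG 3, and *Sprr3* is blue in TG 1 and TG 2.

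*Ivl*, which encodes involucrin, had the largest positive difference of the locus with all papillomas included. It lies on the minus strand of chromosome 3, from 92570902 to 92573715. The levels were 26.8, 17.7, 18.9 and 21.2 FPKM in CTR 1 to CTR 4 and 159, 108 and 36.4 FPKM in TG 1 to TG 3. All TG papillomas were above the highest CTR papilloma, and the CTR papillomas lay close together. The means were 21.2 ± 4.04 FPKM (SD, n = 4) in CTR and 101 ± 61.6 FPKM (SD, n = 3) in TG papillomas. The difference was 2.01 on the log2 scale (standard error 0.43, limma adjusted p = 0.538), with an unadjusted limma p of 0.00132. The paper's own comparison of CTR and TG papillomas, made with Cufflinks, lists *Ivl* and *Nanog* as upregulated in TG papillomas at a false discovery rate under 0.05. A 2-sided exact permutation test over the 35 splits of the papillomas gave p = 0.0286, the smallest value this design allows. Without TG 3 the difference was 2.62 and passed the adjusted threshold (limma adjusted p = 0.0194). With quality weights for the papillomas it was 2.30 and passed (limma adjusted p = 0.0195). Those weights were lowest for TG 3 (0.272) and highest for TG 2 (3.11), so this fit is not separate from leaving out TG 3.

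*Lor*, which encodes loricrin, had groups that overlapped. It lies on the minus strand from 92080271 to 92083142. The levels were 622, 1255, 1555 and 618 FPKM in CTR 1 to CTR 4 and 1329, 690 and 366 FPKM in TG 1 to TG 3. TG 3 was the lowest papilloma and CTR 3 the highest. The difference was -0.42 (95% interval -1.54 to 0.69, limma adjusted p = 0.928), and without TG 3 it was 0.04.

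The promoters of both scaffold genes are shown because their products form the early and the mature envelope, while only *Ivl* separated the groups. The sequences are the 150 bases before the transcript start on the gene's strand, from RefSeq on GRCm38.p6, at chr3:92573736-92573885 for *Ivl* and chr3:92083143-92083292 for *Lor*, both minus strand. Capitals mark TGANTCA, a loose form of the AP-1 motif with any base in the middle. Also in capitals are TATAAA and ATAAAA, letters of the TATA box, which overlap where TATAAAA is read.
*Ivl*: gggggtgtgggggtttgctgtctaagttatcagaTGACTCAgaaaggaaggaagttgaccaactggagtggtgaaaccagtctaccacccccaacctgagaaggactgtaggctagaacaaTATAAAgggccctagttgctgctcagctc
*Lor*: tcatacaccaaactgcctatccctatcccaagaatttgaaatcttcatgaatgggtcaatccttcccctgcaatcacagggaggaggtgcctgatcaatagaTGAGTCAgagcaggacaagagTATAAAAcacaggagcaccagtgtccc
Both hold TGANTCA, at -116 in *Ivl* and -48 in *Lor*, counted from the start, and TATAAA, at -29 and -27. The RefSeq start of *Ivl* lies 20 bases from the start in the files.

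The Sprr2 genes, whose products cross-bridge envelope proteins and are induced in stressed epithelium, gave 5 of the 12 members higher at an unadjusted p under 0.05. All 10 tested had a positive difference, with a median of 0.99 (1.12 without TG 3). Summed over the family, the levels were 1942, 2796, 2962 and 3811 FPKM in CTR 1 to CTR 4 and 7329, 7814 and 3871 FPKM in TG 1 to TG 3. TG 3 was only just above CTR 4. Sprr2 genes made up 13.7% to 25.7% of the members' FPKM in CTR papillomas and 31.2%, 39.7% and 29.5% in TG 1 to TG 3, so the shares did not overlap.

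**Figure D3:**
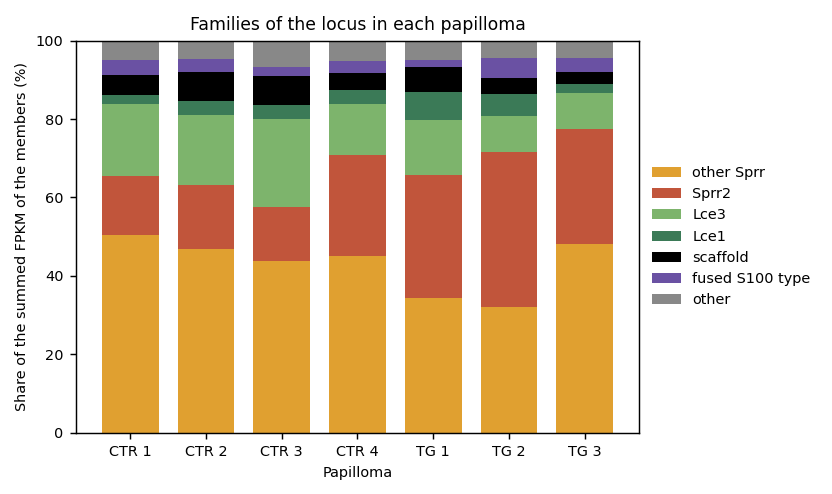
Share of the members' summed FPKM (%) held by each family in each papilloma, as stacked bars that reach 100. The Sprr2 share is at most 25.7% in CTR papillomas and at least 29.5% in TG papillomas, while the other Sprr genes hold 32.0% to 50.4%.

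*Sprr2d* (plus strand, 92339140 to 92340873) was 210, 334, 417 and 562 FPKM in CTR 1 to CTR 4 and 753, 961 and 898 FPKM in TG 1 to TG 3. All TG papillomas were above all CTR papillomas, TG 3 included. The difference was 1.27 (standard error 0.32, limma adjusted p = 0.564; 2-sided exact permutation test, p = 0.0571), and 1.25 without TG 3. *Sprr2i* (plus strand, 92407991 to 92409271) was 202, 215, 292 and 317 FPKM in CTR papillomas and 877, 517 and 382 FPKM in TG 1 to TG 3. It also separated the groups (2-sided exact permutation test, p = 0.0286), with a difference of 1.15 (standard error 0.31, limma adjusted p = 0.587). *Sprr2e* was 74.0, 37.3, 92.4 and 172 FPKM in CTR papillomas and 174, 280 and 174 FPKM in TG papillomas, the groups lying next to each other without overlap (2-sided exact permutation test, p = 0.0571).

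*Sprr2a2* had the largest difference of the family, 1.90 (standard error 0.56, limma adjusted p = 0.608). It was 220, 720, 490 and 621 FPKM in CTR 1 to CTR 4 and 2549, 2964 and 710 FPKM in TG 1 to TG 3. TG 1 and TG 2 were far above the CTR papillomas, whereas TG 3 lay just under CTR 2. *Sprr2b* also had TG 3 within the CTR range, with 124, 664, 336 and 393 FPKM in CTR papillomas and 1325, 1316 and 442 FPKM in TG papillomas. Without TG 3 the differences were 2.55 for *Sprr2a2* and 2.03 for *Sprr2b*, and without TG 1 they were 1.63 and 1.24. The symbol *Sprr2a2* is listed at 2 places, the first of which RefSeq names *Sprr2a1*, and their values were summed. Of its 40-base windows, 97.2% occur exactly in another gene, so its level cannot be assigned to a single copy. For *Sprr2b*, 40.1% of the windows occur in another member within 2 mismatches. The rest of the family, *Sprr2f*, *Sprr2g*, *Sprr2h*, *Sprr2j-ps* and *Sprr2k*, had differences of 0.18 to 0.83 with overlapping groups, and none passed at an unadjusted p under 0.05.

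The promoters of 4 Sprr2 genes are printed because they share an arrangement although the levels differed between the groups by unequal amounts. They are at chr3:92316555-92316704 (*Sprr2b*), chr3:92338990-92339139 (*Sprr2d*), chr3:92407841-92407990 (*Sprr2i*) and chr3:92432432-92432581 (*Sprr2k*), all on the plus strand of GRCm38.p6, from RefSeq. Capitals mark ATTTGCAT, the octamer motif, and TATAAA or ATAAAA.
*Sprr2b*: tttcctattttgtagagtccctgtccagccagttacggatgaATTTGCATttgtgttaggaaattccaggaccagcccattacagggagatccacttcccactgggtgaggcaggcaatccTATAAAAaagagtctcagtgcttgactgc
*Sprr2d*: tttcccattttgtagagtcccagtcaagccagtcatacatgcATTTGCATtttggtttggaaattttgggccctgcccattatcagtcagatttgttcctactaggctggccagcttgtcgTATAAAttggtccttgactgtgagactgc
*Sprr2i*: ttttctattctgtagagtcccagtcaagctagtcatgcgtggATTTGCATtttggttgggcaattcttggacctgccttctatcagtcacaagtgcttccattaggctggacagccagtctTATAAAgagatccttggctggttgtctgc
*Sprr2k*: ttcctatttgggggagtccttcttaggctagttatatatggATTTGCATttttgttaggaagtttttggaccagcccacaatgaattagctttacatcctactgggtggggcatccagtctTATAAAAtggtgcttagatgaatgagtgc
ATTTGCAT stands 108 or 109 bases before the start in these 4, and TATAAA at -29. TGANTCA lies farther out, at -195 in *Sprr2b* and -193 in *Sprr2d*. Of the 9 Sprr2 promoters in the table, 7 held all 3 motifs within 250 bases, and the windows of *Sprr2a1* and *Sprr2a2* held none of them. The *Sprr2a2* transcript used has 2867 bases, against 609 to 784 for the other Sprr2 genes. Only 1 start per gene was examined, so the motifs may lie elsewhere in these 2 genes. ATTTGCAT was found in 7 of 44 member promoters and in 1.6% of 32851 promoters of the genome. The octamer and ATAAAA were looked for after the sequences had been read.

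*Sprr3*, an Sprr gene of internal stratified epithelia such as the esophagus, went the other way. It lies on the minus strand from 92456502 to 92458720. The levels were 1023, 2642, 2580 and 1872 FPKM in CTR 1 to CTR 4 and 153, 443 and 1576 FPKM in TG 1 to TG 3. TG 1 and TG 2 were below every CTR papilloma, and TG 3 lay within the CTR range. The means were 2029 ± 756 FPKM (SD, n = 4) in CTR and 724 ± 752 FPKM (SD, n = 3) in TG papillomas. The difference was -2.0 (standard error 0.70, limma adjusted p = 0.687; 2-sided exact permutation test, p = 0.0857). Without TG 3 it was -2.87, without TG 1 it was -1.19, and in the papillomas of lower depth it was -1.04.

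*Krt13* and *Krt4*, keratins of mucosal epithelia that are not members of the locus, had a similar order of papillomas. *Krt13* was 2406, 5039, 6007 and 4753 FPKM in CTR papillomas and 1290, 789 and 3210 FPKM in TG 1 to TG 3. *Krt4* was 300, 580, 782 and 407 FPKM in CTR papillomas and 18.9, 29.7 and 570 FPKM in TG 1 to TG 3. Of the 6 mucosal markers tested, these were the 2 lower at an unadjusted p under 0.05, and the other 4 had positive differences. The list summed to 2751 to 6886 FPKM in CTR papillomas and to 1370, 888 and 4149 FPKM in TG papillomas.

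The promoter of *Sprr3* is printed beside those of the other Sprr genes because this gene had the opposite sign. It is at chr3:92458721-92458870 on the minus strand of GRCm38.p6, from RefSeq, with TATAAAA in capitals.
*Sprr3*: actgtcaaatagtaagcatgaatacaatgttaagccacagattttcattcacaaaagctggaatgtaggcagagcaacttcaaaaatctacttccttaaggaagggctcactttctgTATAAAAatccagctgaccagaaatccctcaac
It holds no TGANTCA within 250 bases, while *Sprr1a* and *Sprr1b* hold it, at -111 in *Sprr1b*, where it reads TGAATCA. *Sprr4* holds none either, with a difference of 0.58. The Lce1 and Lce3 promoters below also lack it, and those families differed in sign. A tie between these letters and the sign of a difference was not tested. *Sprr1a* and *Sprr1b*, both abundant in every papilloma, had small differences. *Sprr1a* was 3252, 3680, 4624 and 2966 FPKM in CTR papillomas and 4363, 3132 and 3396 FPKM in TG papillomas, a difference of 0.01 (95% interval -0.64 to 0.66) whose sign changed under each other scaling tried. *Sprr1b* ranged from 1621 to 2273 FPKM in CTR papillomas and from 1338 to 3576 FPKM in TG papillomas, with a difference of 0.25 (95% interval -0.57 to 1.06). *Sprr4* was at most 4.37 FPKM in any papilloma.

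**Figure D4:**
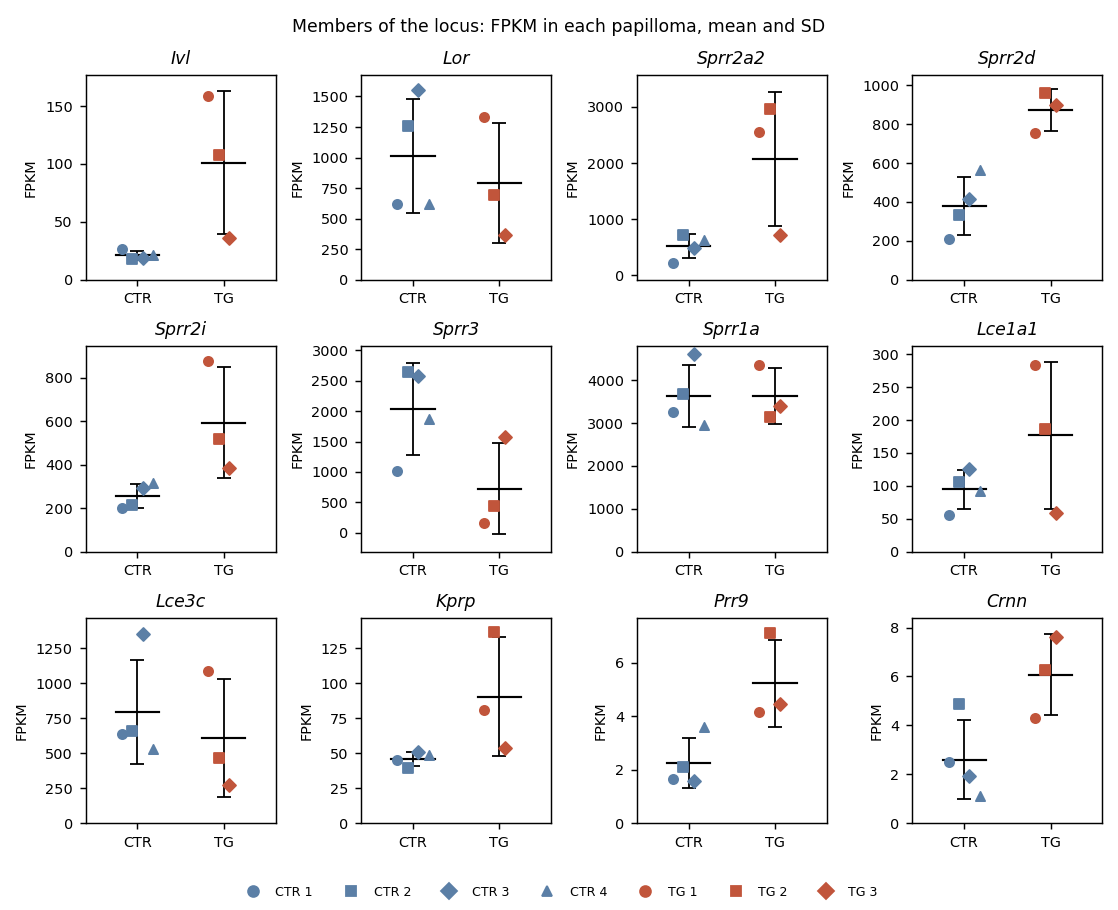
FPKM of 12 members in each papilloma, with the mean (line) and SD (bar) of the 4 CTR and 3 TG papillomas and an axis of its own for each gene. *Ivl*, *Sprr2d*, *Sprr2i*, *Kprp* and *Prr9* separate the groups completely, and *Sprr3* is lowest in TG 1 at 153 FPKM.

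The Lce1 and Lce3 genes, neighbors that encode late envelope proteins, had differences of opposite sign. All 13 Lce1 genes tested had a positive difference, from 0.51 to 1.02, and all 5 Lce3 genes a negative one, from -0.71 to -0.51, and these signs held under upper-quartile, quantile and keratinocyte marker scaling. Only *Lce1l* of these 18 passed at an unadjusted p under 0.05. The Lce1 sum was 317, 604, 771 and 550 FPKM in CTR 1 to CTR 4 and 1678, 1115 and 321 FPKM in TG 1 to TG 3. TG 1 and TG 2 exceeded every CTR papilloma, and TG 3 was near CTR 1, the lowest. Without TG 3 the Lce1 differences were 1.14 to 1.64, and 12 of the 13 were higher at an unadjusted p under 0.05, against 5.2% of all genes. Without TG 1 they were 0.00135 to 0.70, with none at an unadjusted p under 0.05, and in the papillomas of lower depth they were 0.17 to 0.98. The Lce3 sum was 2388, 3037, 4892 and 1923 FPKM in CTR papillomas and 3335, 1785 and 1187 FPKM in TG papillomas, and without TG 3 the differences were -0.43 to -0.06. Without TG 1 the Lce3 differences were -1.05 to -0.88, and all 5 were lower at an unadjusted p under 0.05, against 2.81% of all genes.

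*Lce1a1*, the Lce1 gene with the highest mean, was 55.5, 105, 125 and 92.7 FPKM in CTR papillomas and 283, 187 and 59.2 FPKM in TG 1 to TG 3. Its difference was 0.69 (95% interval -0.44 to 1.82, limma adjusted p = 0.846), 1.34 without TG 3 and 0.21 without TG 1. *Lce1l* was 12, 18.5, 24.2 and 18 FPKM in CTR papillomas and 48.5, 44.1 and 17.9 FPKM in TG papillomas, a difference of 0.92 (limma adjusted p = 0.702). *Lce3c*, the Lce3 gene with the highest mean, was 636, 662, 1352 and 533 FPKM in CTR papillomas and 1088, 465 and 277 FPKM in TG papillomas, a difference of -0.51 (95% interval -1.61 to 0.58). Its order of papillomas was unlike that of *Lce1a1*, with CTR 3 highest. Within 2 mismatches, the number the aligner allowed, 28.9% to 91.6% of the 40-base windows of Lce1 genes other than *Lce1m* occur in another member, and 51.4% to 74.8% of those of Lce3 genes. Values of single Lce genes are therefore uncertain, which is why sums over each family are given.

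The promoters of 2 Lce1 and 1 Lce3 gene are printed to set these neighbors beside the Sprr genes. They are at chr3:92648308-92648457 (*Lce1a1*, minus strand), chr3:92851287-92851436 (*Lce1l*, minus strand) and chr3:92944336-92944485 (*Lce3c*, plus strand) on GRCm38.p6, from RefSeq, with ATAAAA in capitals.
*Lce1a1*: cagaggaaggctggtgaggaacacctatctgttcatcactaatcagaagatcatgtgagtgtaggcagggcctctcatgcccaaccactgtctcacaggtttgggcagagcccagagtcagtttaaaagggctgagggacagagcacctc
*Lce1l*: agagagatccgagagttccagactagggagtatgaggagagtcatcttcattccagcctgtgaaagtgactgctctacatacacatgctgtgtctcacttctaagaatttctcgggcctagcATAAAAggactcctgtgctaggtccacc
*Lce3c*: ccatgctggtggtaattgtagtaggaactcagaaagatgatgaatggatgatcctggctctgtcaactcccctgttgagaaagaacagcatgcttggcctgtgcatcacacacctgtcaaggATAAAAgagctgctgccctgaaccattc
TGANTCA was absent within 250 bases of all 12 Lce1 and all 5 Lce3 promoters in the table. ATAAAA was present in 11 of the 12 Lce1 promoters, *Lce1a1* being the exception, and in all 5 Lce3 promoters, at -28 in both *Lce1l* and *Lce3c*. Over the locus, TGANTCA was found in 16 of 44 promoters (36.4%), against 6.75% of all promoters, and TATAAA in 21 of 44 (47.7%), against 12.4%. ATAAAA was found in 70.5% of member promoters, against 17.0%. AACCNGTT, the Grainyhead-like motif, was in 1 member promoter (2.27%), against 1.79%, TAATGG, a homeodomain motif, in 5 (11.4%), against 6.57%, and CACCC, a KLF motif, in 18 (40.9%), against 52.0%. Both strands were searched, member promoters resemble each other and are not independent, and a match is only a match of letters.

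Among the fused S100 type genes, all 6 tested had a positive difference, with a median of 0.84. Without TG 3 the median was 1.01 and *Tchh* was at -0.07. *Hrnr*, encoding hornerin, was 17.6, 32.7, 28.3 and 33.6 FPKM in CTR papillomas and 52.1, 102 and 29.7 FPKM in TG papillomas. Its difference was 0.98 (standard error 0.40, limma adjusted p = 0.707) and 1.41 without TG 3. *Crnn*, encoding cornulin, was low in all papillomas, at 2.5, 4.89, 1.92 and 1.10 FPKM in CTR and 4.32, 6.27 and 7.61 FPKM in TG papillomas, a difference of 1.19 (standard error 0.38, limma adjusted p = 0.653). In this gene TG 3 was the highest papilloma. *Rptn*, encoding repetin, was the most abundant of the family and ranged from 405 to 514 FPKM in CTR papillomas, against 356, 876 and 407 FPKM in TG 1 to TG 3. Its difference was 0.10 (95% interval -0.61 to 0.81), and -0.00337 under keratinocyte marker scaling. *Flg2*, a relative of filaggrin, had a difference of 1.16 (95% interval -0.27 to 2.59), at means of 1.68 and 3.98 FPKM in CTR and TG papillomas. *Tchh*, the trichohyalin gene of the inner root sheath of hair, had a difference of 0.30, and *Tchhl1* of 0.70.

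Of the remaining members, *Kprp*, a keratinocyte proline-rich protein gene, was 45.5, 39.1, 50.7 and 49.0 FPKM in CTR papillomas and 81.0, 137 and 53.5 FPKM in TG papillomas. The groups did not overlap (2-sided exact permutation test, p = 0.0286), and the difference was 0.87 (standard error 0.29, limma adjusted p = 0.686). *Prr9* was 1.67, 2.12, 1.6 and 3.59 FPKM in CTR papillomas and 4.16, 7.10 and 4.45 FPKM in TG papillomas, a difference of 1.08 (standard error 0.29, limma adjusted p = 0.564; 2-sided exact permutation test, p = 0.0571). *Pglyrp3*, a peptidoglycan recognition protein gene, was 7.57 to 11.2 FPKM in CTR papillomas and 11.8 to 12.8 FPKM in TG papillomas, a difference of 0.45 with groups that did not overlap (2-sided exact permutation test, p = 0.0571). *2310050C09Rik* was 8.51, 23.4, 29.3 and 38.9 FPKM in CTR papillomas and 105, 103 and 19.7 FPKM in TG papillomas. Its difference was 1.43 (limma unadjusted p = 0.0588, adjusted p = 0.76), 2.22 without TG 3 and 1.03 without TG 1. *Crct1* had a difference of -0.25 and *Lce6a* of 0.73, both with overlapping groups.

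The genes around this pathway gave a mixed picture. Suprabasal keratins and corneodesmosome genes had a positive difference in 9 of 9 tested, with a median of 0.49, and 1 was higher at an unadjusted p under 0.05. The positive count was 7 of 9 under quantile and keratinocyte marker scaling and 8 of 9 without TG 3. *Krt10*, a keratin of the spinous layer, was 1440, 1365, 950 and 917 FPKM in CTR papillomas and 3150, 3133 and 181 FPKM in TG 1 to TG 3. *Krt1*, its partner, was 187, 698, 470 and 807 FPKM in CTR papillomas and 1517, 3309 and 133 FPKM in TG papillomas. As in the Lce1 sum, TG 1 and TG 2 were above every CTR papilloma, but TG 3 was below every CTR papilloma in both keratins.

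**Figure D5:**
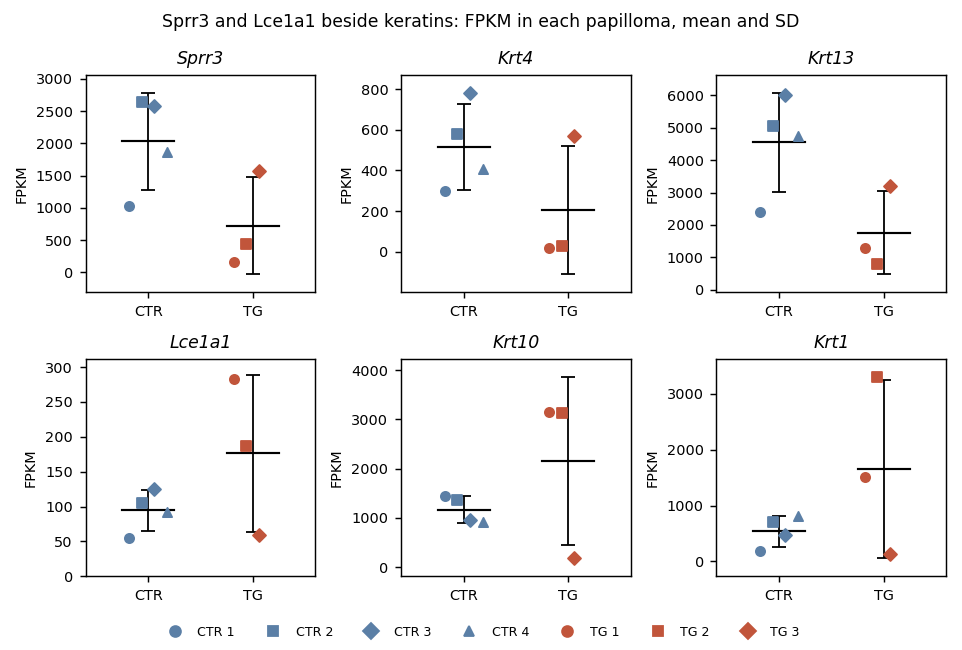
FPKM of 2 members, *Sprr3* and *Lce1a1*, and of 4 keratins in each papilloma, with the mean (line) and SD (bar) of each group. *Krt4* and *Krt13* are low where *Sprr3* is low, in TG 1 and TG 2, and *Krt10* and *Krt1* are high in the same 2 papillomas.

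Genes outside the locus that crosslink the envelope or belong to it had a median of -0.12, with 1 of 13 higher and 1 lower at an unadjusted p under 0.05. Among the most abundant, *Krtdap* had a difference of -0.49 and *Slpi*, a protease inhibitor, of -0.88. Genes that process and break down filaggrin had a median of 0.24, with 1 of 14 higher. Transcription factors of late epidermal differentiation had a median of 0.09 (-0.02 under keratinocyte marker scaling), with 0 of 25 past an unadjusted p of 0.05 in either direction by limma, and 0 adjusted. *Klf4* had a difference of -0.09 and *Junb*, a subunit of AP-1, of 0.09. Of 12 S100 genes of chromosome 3 tested, 2 were higher at an unadjusted p under 0.05. These were *S100a8* and *S100a9*, which encode calprotectin, with differences of 1.32 and 1.26. Basal keratinocyte genes had a positive difference in 10 of 10, with a median of 0.34 and 3 higher at an unadjusted p under 0.05, but in 6 of 10 under keratinocyte marker scaling and without TG 3. Stress keratins had a median of 0.05 over 4 genes (-0.06 under keratinocyte marker scaling), and inner root sheath and medulla genes of 1.08 over 6 (0.24 without TG 3), with 1 higher. Endothelial markers, 6 of 6 with a positive difference, summed to 12.1 to 18.8 FPKM in CTR and 28.9, 16.3 and 36.2 FPKM in TG papillomas. Leukocyte markers, 6 of 7 with a positive difference, summed to 71.5 to 120 FPKM in CTR and 124, 112 and 319 FPKM in TG papillomas. Adipocyte markers summed to 1374 to 3228 FPKM and 1545, 2269 and 1714 FPKM, nearly all from *Fabp4*, with 1 of 2 positive. The next most abundant, *Cfd*, *Adipoq* and *Retn*, were each highest in TG 3, which this sum does not show. *Adipoq* was 3.34 FPKM in TG 3, 0.0338 FPKM in TG 1 and 0 in the other papillomas. *Retn* was 2.81 FPKM in TG 3, 0.111 FPKM in TG 2 and 0 in the other papillomas. Sebocyte markers summed to 58.1 to 97.0 FPKM and 76.6, 60.4 and 115 FPKM, with 3 of 4 positive.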

How the data were processed

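RNA-seq of 4 CTR and 3 TG papillomas was analysed. The authors sequenced polyA+ RNA in stranded libraries, in single reads of 40 bases, and deposited FPKM values per gene with confidence intervals for each papilloma. The submitters' processing notes name TopHat2 2.0.4, Bowtie 0.12.7, SAMtools 0.1.16 and Cufflinks 1.3.0 on GRCm38 (mm10). Reads with up to 5 alignments and 2 mismatches were kept by the authors, so near-identical genes share reads. The RNA kit named in the labels differs from that in the paper's methods.

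Each file lists 23746 entries. Entries of a symbol were summed (240 symbols), and 162 symbols with a failed estimate in any papilloma were left out. File starts count from 0 and are given here from 1. The members and gene lists were chosen with earlier results of these data known. log2(FPKM + 0.5) was fitted with limma 3.58.1 (R 4.3.3, trended variances) for genes whose mean FPKM was 0.5 or more, and p-values were 2-sided and Benjamini-Hochberg adjusted over 12299 genes. Fold changes on this scale understate those of low genes. Single members were compared by an exact permutation test over 35 splits. Named genes were every member with a mean of at least 0.5 FPKM and, outside the locus, *Nanog* and up to 4 abundant genes of each list. *Krt4*, *S100a9*, *Klf4* and *Junb* fall under that rule. Python 3.11.15, numpy 2.4.6, pandas 2.3.3 and matplotlib 3.10.9 were used.

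The files give no read counts. Depth was inferred from the intervals. On simulated data for this comparison, limma called 36.4% of 66 genes changed by 1 on the log2 scale, 94.4% of 71 changed by 2 and 100% of 63 changed by 3, and 7 of 12099 unchanged genes, over 12299 genes. In the measured papillomas limma called 0 genes, and *Nanog*, with a difference of 3.45, had a limma adjusted p of 0.4. The simulation drew independent normal noise for each gene, without a library that stood apart as TG 3 did. Its rates therefore need not hold for the measured papillomas, and a gene that was not called is not shown to be unchanged. Shared windows were counted on GENCODE transcripts, found for all 50 members. RefSeq promoters (GRCm38.p6) were matched for 43 members. Protein sequences were not used here. 19 alternatives were planned and 1 was added after seeing the data.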

Additional observations from a re-analysis of the deposited data

Results flagged for a closer look

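Among the 4 CTR papillomas, 4 of the 46 members had 1 papilloma far from the other 3, beyond Dixon's 95% critical value for 4 samples. Chance flags about 1 in 20 groups. *Lce1e* was 59.2 FPKM in CTR 3, against 33.9 to 34.9 FPKM in the others. *Lce3c* and *Crct1* were also highest in CTR 3, at 1352 and 1339 FPKM. *Lce1k* was lowest in CTR 1, at 6.20 FPKM. The TG group has 3 papillomas and was not examined in this way.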

How the results depend on the processing

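Of 919 differences of single members compared with the reported ones over 20 alternatives, 897 kept their direction and their side of the adjusted threshold, 18 changed sign and 4 came to pass. 38 of 46 members kept their sign throughout. The cause of each change was not tested. *Sprr1a* changed sign under upper-quartile scaling (-0.0213), quantile normalization (-0.0476), keratinocyte marker scaling (-0.0976), quality weights (-0.083) and in the papillomas of lower depth (-0.0109), where *Sprr2j-ps* was at -0.0658. *Rptn* was at -0.00337 under keratinocyte marker scaling. Leaving out 1 papilloma at a time spread *Sprr1a* from -0.134 to 0.129, *Lor* from -0.889 to 0.0413, *Sprr2f* from -0.295 to 1.04, *Sprr2j-ps* from -0.0855 to 0.568, *Sprr1b* from -0.0546 to 0.655, *Crct1* from -0.513 to 0.00977, *Rptn* from -0.301 to 0.348 and *Tchh* from -0.0692 to 0.633. The calls came with quality weights, with *Ivl* (2.30), *Sprr2a2* (2.43) and *Kprp* (1.31), and without TG 3, with *Ivl* (2.62). TG 3 had the lowest quality weight (0.272), so these fits overlap.

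With quality weights 49 genes passed the adjusted threshold as higher and 36 as lower, among them 3 members higher, and 26 members were higher at an unadjusted p under 0.05, against 9.44% of all genes. In the papillomas of lower depth these counts were 1 gene higher and 7 members higher and 2 lower, unadjusted, against 3.68% and 1.42% of all genes. There, 4 members had all TG papillomas below. Quantile normalization left 3 members lower, against 4.48% of all genes, 4 with all TG papillomas above and 1 with all below. Keratinocyte marker scaling left 2 lower, against 1.36% of all genes, and 1 with all below. Leaving out 1 papilloma gave 0 to 2 genes higher and 0 to 1 lower, and 0 to 1 members higher and 0 lower past the adjusted threshold. Unadjusted, 6 to 27 members were higher and 0 to 5 lower, against 2.96% to 6.71% and 0.99% to 4.38% of all genes. Members with all TG papillomas above numbered 7 to 27, and all below 0 to 4. The shares of all genes without overlap are not given for these alternatives, so their counts of members without overlap are not read as results.

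Whether the replicate numbers shared by both groups pair the papillomas could not be decided from so few papillomas. Same-numbered deviations correlated at -0.19, 0.04 and -0.15, within the range of -0.216 to 0.312 of the other pairs. With the number as a block, 12 members were higher and 1 lower, unadjusted, against 4.11% and 1.38% of all genes. Of the members, 0 passed adjusted, while *Sprr1a* was at -0.0845 in that block. The files give no read counts, so the depth behind each value is only inferred.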

Other observations

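Within the Sprr2 cluster, CTR 2 divided neighboring genes. *Sprr2e*, *Sprr2f*, *Sprr2g* and *Sprr2h*, which follow each other on the chromosome, were each lowest in CTR 2 among the CTR papillomas. *Sprr2f* was 38.5 FPKM there, against 269, 273 and 381 FPKM in CTR 1, CTR 3 and CTR 4, and *Sprr2g* was 38.1 FPKM, against 109, 124 and 191 FPKM. *Sprr2a2* and *Sprr2b*, on the other side of *Sprr2d*, were each highest in CTR 2, at 720 and 664 FPKM. *Sprr2f* was also low in TG 1, at 108 FPKM, where *Sprr2a2* was 2549 FPKM. These values were singled out after they had been seen, and no test was made.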
